A study of Mus musculus with 2 samples.

Results

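The genes described here are the 7 mouse genes of MHC class II antigen presentation that were chosen by symbol: H2-Aa, H2-Ab1, H2-Eb1, Cd74, H2-DMa, H2-DMb1 and Ciita. They are 7 of 31053 genes in the files, and each was found. They were followed in epithelial cells, taken as barcodes that had 500 genes or more, 20% or less of their UMIs from mitochondrially encoded genes and no UMI of Ptprc, the leukocyte common antigen CD45. This left 10892 cells of mice given the FZD5/8 antagonist and 11157 Fc control cells.

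The antagonist group received an agent against FZD5 and FZD8, receptors for Wnt ligands, and the control group received an Fc protein. Both groups are labelled as female Lgr5-eGFP-IRES-CreER mice of 10 to 12 weeks, in which the reporter and the recombinase stand under the Lgr5 gene's own control. Jejunal cells were sorted for GFP, and 3 mice per condition gave 1 droplet-based 3′ library per condition. The comparison asks how these genes stand in crypt epithelium when FZD5 and FZD8 are blocked. The cells cannot be assigned to mice, so a group is 1 sample, no test was made, and every difference is one between these 2 libraries with no replicate check. All intervals are 95% intervals for counting error only, and levels are in CPM, UMIs scaled to a total of 1000000 in the library or cell group named.

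MHC class II molecules carry peptides from the endosomal pathway to the cell surface, where CD4 T cells read them. An alpha and a beta chain pair in the endoplasmic reticulum with the invariant chain (Cd74), which fills the groove and guides the complex to endosomes. There, proteases trim the invariant chain and the H2-DM heterodimer exchanges its last fragment for other peptides. The transactivator Ciita binds no DNA itself and acts through RFX, CREB and NF-Y factors on a shared promoter module, and interferon gamma is its best known inducer. Class II genes are typical of dendritic cells, B cells and macrophages, and crypt epithelial cells of the mouse small intestine, Lgr5-positive stem cells included, are also known to carry them.

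The antagonist library held 55810293 UMIs in 13085 barcodes (median 2718.5 UMIs per kept cell), and the control library 67411637 UMIs in 12672 barcodes (median 4455). Lgr5 itself, the gene behind the sort, stood at 3.00 CPM in antagonist and 66.5 CPM in control cells, so the cells are called sorted crypt cells here and not stem cells. Xist stood at 510 CPM in antagonist and 1.35 CPM in control cells and the Y-linked genes together at 5.42 CPM in antagonist and 107 CPM in control cells, although both libraries are labelled female. Differences linked to sex and to treatment therefore cannot be told apart. The libraries shared 145 barcodes, 62 of them among the kept cells of both.

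All 7 members were lower in the antagonist library, each by more than 1.5-fold, where 18.9% of the 13676 genes with 20 or more UMIs were that much lower. Among the 9504 genes within the members' range of control levels the share was 12.3%. Summed, the members reached 371 CPM (366 to 376) in antagonist and 826 CPM (819 to 833) in control cells, which is 2.23-fold lower (2.19 to 2.27). The median log2 ratio of the members was -1.36, against -0.15 over all measured genes. With 1 library per group these shares describe the 2 libraries and say nothing of the spread between mice.

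The classical chains lie side by side in the MHC region of chromosome 17 (GRCm38, GENCODE annotation). H2-Aa (34282744 to 34287823, minus strand) encodes the alpha chain of I-A, H2-Ab1 (34257689 to 34269419) its beta chain, and H2-Eb1 (34305867 to 34316674) the beta chain of I-E. H2-Aa had 1126 UMIs or 21.7 CPM in antagonist cells and 3950 UMIs or 60.5 CPM in control cells, 2.80-fold lower (2.62 to 2.99). H2-Eb1 stood at 24.7 CPM in antagonist and 63.4 CPM in control cells, 2.57-fold lower (2.41 to 2.73). H2-Ab1 stood at 40.1 CPM in antagonist and 73.5 CPM in control cells, 1.83-fold lower (1.74 to 1.93). The interval of H2-Ab1 lies apart from those of the other 2 chains. Past counting error, the chains thus did not differ by the same factor between these 2 libraries, and the spread between mice is not known. There were 1.85 (1.72 to 1.99) H2-Ab1 UMIs for each H2-Aa UMI in antagonist cells and 1.21 (1.16 to 1.27) in control cells. For H2-Eb1 over H2-Aa the numbers were 1.14 (1.05 to 1.24) in antagonist and 1.05 (1.002 to 1.09) in control cells, with overlapping intervals.

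Cd74 (chromosome 18, 60803848 to 60812652) was by far the most abundant member. It had 13904 UMIs or 267 CPM (263 to 272) in antagonist cells and 38752 UMIs or 594 CPM (588 to 600) in control cells, 2.22-fold lower (2.18 to 2.26). Its share of all member UMIs was 72.1% in antagonist and 71.9% in control cells. For each UMI of the 3 chains together, antagonist cells held 3.09 (2.99 to 3.20) and control cells 3.01 (2.95 to 3.07) Cd74 UMIs. The invariant chain and the sum of the chains thus differed between the libraries by nearly the same factor.

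The H2-DM heterodimer, which edits the bound peptide, is made of H2-DMa (chromosome 17, 34119541 to 34139101) and H2-DMb1 (34153072 to 34160230). H2-DMa stood at 10.96 CPM in antagonist and 18.4 CPM in control cells, 1.68-fold lower (1.52 to 1.86), the smallest fold among the members, with an interval that overlaps that of H2-Ab1. H2-DMb1 stood at 4.71 CPM in antagonist and 12.6 CPM in control cells, 2.67-fold lower (2.31 to 3.09). Here too the partners of one heterodimer differed by unlike factors between these libraries, past counting error only. There were 2.33 (1.9995 to 2.71) H2-DMa UMIs for each H2-DMb1 UMI in antagonist cells and 1.47 (1.34 to 1.61) in control cells. H2-DMb2, a close paralog of H2-DMb1, had 0 UMIs in antagonist and 1 UMI in control cells. How reads matching both paralogs were counted is not given in the sources used here.

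Ciita (chromosome 16, 10480059 to 10528418) was the least abundant member and the one with the lowest ratio. It had 67 UMIs or 1.29 CPM (0.999 to 1.64) in antagonist and 263 UMIs or 4.03 CPM (3.56 to 4.55) in control cells, 3.13-fold lower (2.38 to 4.15). Its interval overlaps those of H2-Aa, H2-Eb1 and H2-DMb1, so their order is not resolved at this depth. Its log2 ratio, -1.65, was -2.45 without cells with any UMI of the leukocyte, B cell or myeloid lists, and its level in the 4 depth classes of control cells was 9.75 CPM in the shallowest and 2.82 CPM in the deepest, against 1.73 CPM and 1.31 CPM in the same classes of antagonist cells. The myeloid list holds Cst3, at 349 CPM in antagonist and 330 CPM in control cells, so that filter is not one for immune cells alone.

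**Figure D1:**
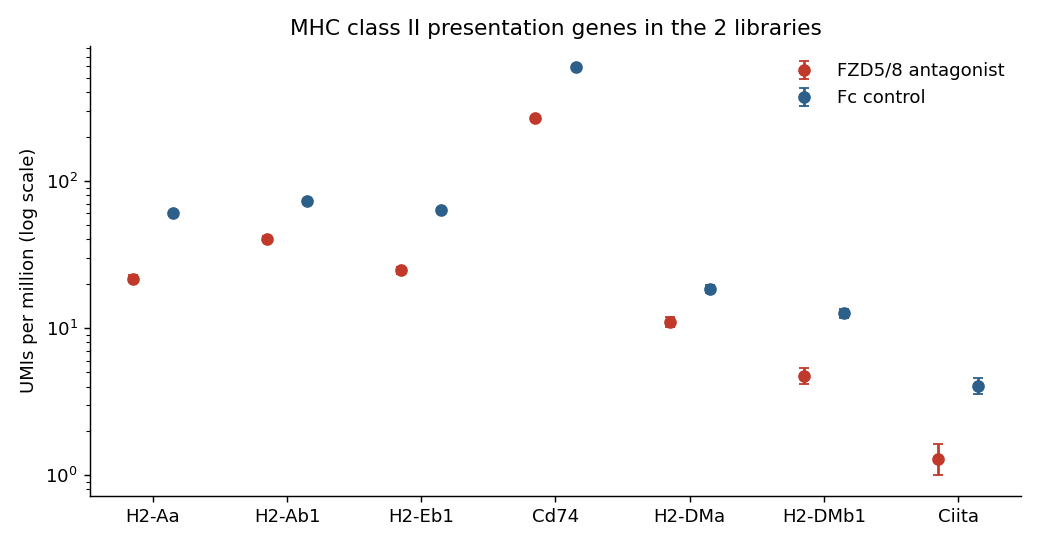
Level of each member in CPM (log axis) in the FZD5/8 antagonist library (red, left) and the Fc control library (blue, right), 1 library each, with 95% Poisson intervals that are mostly smaller than the points. Every member is lower in the antagonist library, from 1.68-fold for H2-DMa to 3.13-fold for Ciita, and Cd74 leads in both.

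Letters of the promoter module through which Ciita acts were found just upstream of a RefSeq transcript start of 3 members, and these sequences are printed below. A link between these letters and the levels was not tested. They are the last 120 bases before the transcript start (RefSeq, GRCm38.p6), 5′ to 3′ on the gene's strand. The H2-DMb1 stretch lies almost wholly inside the GENCODE gene given above, which starts at 34153072, before this RefSeq start. Capitals mark matches to AACNGATG, a stretch of the X box bound by RFX, to TGACGTCA, the palindrome bound by CREB family factors, and to TGATTGG, the Y box bound by NF-Y.
H2-Aa, chr17:34287824-34287943, minus strand: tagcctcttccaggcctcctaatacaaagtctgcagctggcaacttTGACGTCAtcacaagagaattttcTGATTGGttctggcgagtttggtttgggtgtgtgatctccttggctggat
H2-Eb1, chr17:34305747-34305866, plus strand: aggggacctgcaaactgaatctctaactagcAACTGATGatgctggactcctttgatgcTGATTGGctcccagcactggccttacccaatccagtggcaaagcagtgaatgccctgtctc
H2-DMb1, chr17:34153071-34153190, plus strand: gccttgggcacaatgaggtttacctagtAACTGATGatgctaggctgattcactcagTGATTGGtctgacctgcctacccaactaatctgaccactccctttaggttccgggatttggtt

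In H2-Eb1 the X box letters end 20 bases before the Y box, and in H2-DMb1 they end 21 bases before it. In H2-Aa the CREB palindrome ends 16 bases before the Y box. The motifs were chosen after these promoters had been read, so their presence here is a description. Searched on both strands in the 250 bases before each start of 32851 RefSeq promoters, AACNGATG was found in 1.98%, TGACGTCA in 1.55%, TGATTGG in 7.23%, and AACNGATG together with TGATTGG in 48 promoters (0.146%). The motifs do not overlap in these 3 sequences. The table has an entry for 4 of the 7 members, and neither entry of H2-DMa held one of the 3 motifs in that window. Both H2-DMa entries lie inside the GENCODE gene given above, so the bases before its GENCODE start were not searched. H2-DMb2, which is not a member and had 0 UMIs in antagonist and 1 UMI in control cells, held AACNGATG and TGATTGG with 21 bases between them.

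Because a cell with few UMIs shows fewer genes, cells were compared at 1 depth, with 3000 UMIs drawn from each of 4956 antagonist and 7444 control cells. Another 5936 antagonist and 3713 control cells were too shallow and were left out. Cd74 was then found in 44.8% (43.4 to 46.2) of antagonist and 63.5% (62.4 to 64.6) of control cells. Without thinning it was found in 42.8% of antagonist and 68.6% of control cells. For the chains, H2-Ab1 was found in 10.4% of antagonist and 19.5% of control cells, H2-Eb1 in 7.18% of antagonist and 16.7% of control cells, and H2-Aa in 6.52% of antagonist and 16.2% of control cells. H2-DMa was found in 3.43% of antagonist and 5.86% of control cells, H2-DMb1 in 1.43% of antagonist and 3.69% of control cells, and Ciita in 0.404% of antagonist and 1.29% of control cells. In cells with a UMI of it, Cd74 also had fewer UMIs, 1.85 per such cell in the antagonist and 2.92 in the control library. A class II chain averaged 1.08 to 1.10 UMIs per positive antagonist cell and 1.20 to 1.26 per positive control cell. Tuft-gated cells, whose levels were among the lowest, had Cd74 in 18.2% of 22 antagonist and 13.9% of 79 control cells at this depth, and a class II chain in 4.55% of antagonist and 6.33% of control cells. Over all gates a chain was found in 21.05% of antagonist and 39.3% of control cells.

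Cells with more than 1 member were rarer in the antagonist library. At least 1 member was found in 55.0% (53.6 to 56.4) of antagonist and 73.9% (72.9 to 74.9) of control cells. At least 2 members were found in 15.5% (14.5 to 16.5) of antagonist and 35.8% (34.7 to 36.9) of control cells, a difference of -20.4 percentage points. Without thinning, 18.9% of antagonist and 46.0% of control cells had at least 2. At least 3 were found in 3.05% of antagonist and 12.8% of control cells, and at least 4 in 0.525% of antagonist and 3.73% of control cells. No thinned cell had all 7, which allows a share of up to 0.0605% in antagonist and 0.0403% in control cells. All 3 chains were found together in 17 antagonist cells, 15 of them with Cd74, and in 135 control cells, 131 of them with Cd74.

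**Figure D2:**
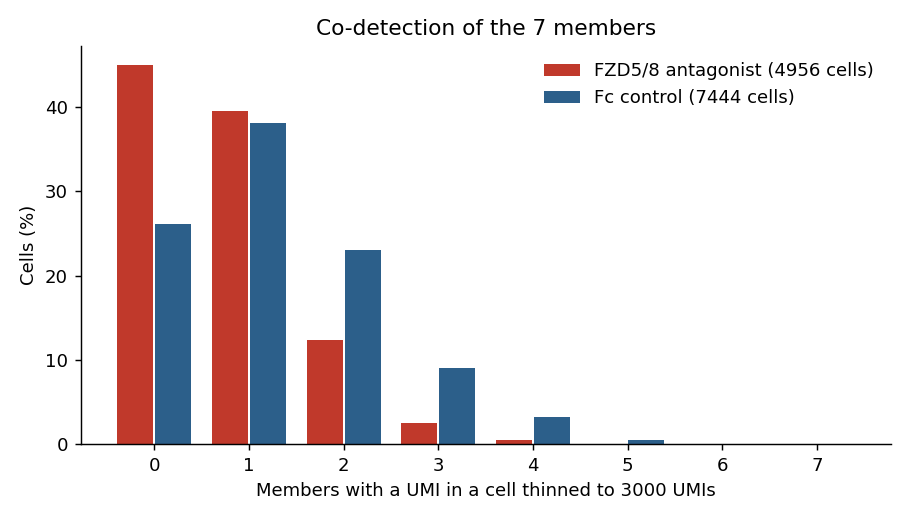
Share of cells (%) by the number of the 7 members with a UMI, in cells thinned to 3000 UMIs, antagonist in red on the left and control in blue on the right. At 0 members the share is larger in the antagonist library (45.0% of antagonist and 26.1% of control cells), and at 2 to 5 members it is larger in the control library (exactly 2 in 12.4% of antagonist and 23.0% of control cells).

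The members tended to be found in the same cells in both libraries. Of the 42 ordered pairs, the share of cells with one member was higher in cells that also had the other in 38 pairs in the antagonist and 42 in the control library, with a median ratio of 1.58 in antagonist and 1.63 in control cells. Each pair is counted in both directions, and the intervals lay apart in 17 antagonist and 28 control pairs. Pairs of other genes of like level were not counted, so whether the members differ from them in this was not tested. Among the pairs with larger ratios, H2-Aa was found in 10.4% of antagonist cells with Cd74 and 3.36% of those without it. In control cells the shares were 21.4% with Cd74 and 7.11% without. H2-Eb1 was found in 18.3% of antagonist cells with H2-Aa and 6.41% of those without, and in 29.4% of control cells with H2-Aa and 14.3% of those without. The pairs with Ciita rest on 20 antagonist and 96 control cells and are the least certain.

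The share of cells with H2-Aa climbed with the number of Cd74 UMIs in the cell. Antagonist cells with 0, 1, 2, 3 to 5 and 6 or more Cd74 UMIs had H2-Aa in 3.36%, 7.27%, 9.88%, 16.9% and 39.6%. Control cells in the same order had it in 7.11%, 13.5%, 15.9%, 24.6% and 48.2%. The highest class held 53 antagonist cells (1.07%) and 589 control cells (7.91%), and its intervals overlap between the libraries (26.5% to 54.0% in antagonist and 44.1% to 52.3% in control cells). At 0, 1, 2 and 3 to 5 Cd74 UMIs the antagonist shares were below the control shares with intervals apart.

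Cells were then gated by markers into exclusive groups, with thresholds set after the markers' levels had been seen. The gates name cells by their markers and do not show a lineage. Counts of members with an interval below equality depend on the UMIs in a gate. The share of all genes with such intervals was not computed, so these counts do not rank the gates. Cells with a UMI of Lgr5 and none of the differentiation or cycle gates were 57 of the antagonist and 2014 of the control cells. Their members summed to 475 CPM (426 to 529) in antagonist and 1052 CPM (1034 to 1071) in control cells, 2.21-fold lower, and 6 of 7 members were 1.5-fold or more lower (25.7% of 11048 measured genes in that gate). The interval of the ratio lay below equality for 5 of 7, and Ciita had 2 and H2-DMb1 3 UMIs in the antagonist cells. The 57 antagonist cells also held 11933 CPM of Defa24, a Paneth cell defensin, against 3581 CPM in the control cells. Of the crypt gates described below, Defa24 was also higher in antagonist Dmbt1-high (7166 CPM, control 3281 CPM) and G2 and M cells (8364 CPM, control 3387 CPM). Defa24 was lower in antagonist Olfm4-high (3229 CPM, control 4574 CPM) and S phase cells (2604 CPM, control 3582 CPM). Its part in the result was not tested. The value rests on few cells: without cells with any UMI of the leukocyte, B cell or myeloid lists, 11 antagonist cells remained and the log2 ratio was -0.02. That filter also removes cells for a UMI of Cst3, which is abundant in both libraries.

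The largest control group was made of cells without Lgr5 but with high Olfm4, a stem and early progenitor marker. It held 632 antagonist and 4151 control cells. Here the members summed to 809 CPM (762 to 858) in antagonist and 965 CPM (951 to 980) in control cells, only 1.19-fold lower. Only Ciita passed 1.5-fold, with 2 UMIs in the antagonist and 95 UMIs in the control cells, where 13.6% of 11490 genes were that much lower. The ratio was 0.281 with an interval of 0.0335 to 1.04. H2-Eb1 stood at 74.95 CPM in antagonist and 78.2 CPM in control cells of this gate, and H2-DMb1 at 16.7 CPM in antagonist and 13.5 CPM in control cells, with intervals of the ratio that include 1. Among cells thinned to 3000 UMIs, 127 antagonist and 2497 control cells, the log2 ratio of the sum was 0.0035. The antagonist cells of this gate were shallow, with a median of 1770 UMIs, against 3717 in control cells.

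Cells high in Dmbt1, a secreted scavenger receptor of crypt epithelium, were 2465 antagonist and 172 control cells. Their members summed to 358 CPM (346 to 371) in antagonist and 574 CPM (532 to 620) in control cells, 1.60-fold lower, with 5 of 7 members 1.5-fold or more lower (12.8% of 10495 genes). The interval of the ratio lay below equality for 4 of 7. In both libraries this gate was lower than the Olfm4-high gate.

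Cycling cells were lower as well. In the G2 and M gate, with 3441 antagonist and 2445 control cells, the members summed to 348 CPM (340 to 356) in antagonist and 807 CPM (793 to 821) in control cells, 2.32-fold lower. All 7 were 1.5-fold or more lower there (16.0% of 11953 genes), and each had an interval below equality. In the S phase gate the sums were 409 CPM (388 to 430) in antagonist and 778 CPM (752 to 805) in control cells, 1.90-fold lower, with 6 of 7 members past 1.5-fold (15% of 10285 genes) and 6 of 7 intervals below equality. Among all thinned cells, those with a UMI of Mki67, a proliferation gene, summed to 349 CPM in antagonist and 737 CPM in control cells, and those without it to 405 CPM in antagonist and 927 CPM in control cells.

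Of the differentiated gates, enterocytes had the highest sums. Enterocyte-gated cells (543 antagonist, 199 control) summed to 343 CPM (320 to 366) in antagonist and 779 CPM (742 to 818) in control cells, 2.27-fold lower, with 7 of 7 members past 1.5-fold (6.83% of 8671 genes) and 5 of 7 intervals below equality. Goblet-gated cells, the mucus producers, summed to 285 CPM (264 to 307) in 515 antagonist and 487 CPM (459 to 516) in 270 control cells, 1.71-fold lower, with 5 of 7 past 1.5-fold (10.6% of 9569 genes) and 5 of 7 intervals below equality. Enteroendocrine-gated cells, the hormone producers, summed to 242 CPM (176 to 325) in 59 antagonist and 343 CPM (284 to 411) in 61 control cells, and the interval of the ratio, 0.487 to 1.005, includes equality.

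Tuft-gated cells, which sense luminal signals, were low in both libraries. Their members summed to 93.2 CPM (62.4 to 134) in 148 antagonist and 200 CPM (164 to 241) in 131 control cells, from 29 UMIs in antagonist and 109 UMIs in control cells. The ratio depends on the cells used. Its log2 value was -1.10, and with cells holding a Ptprc UMI kept (198 antagonist, 212 control) it was -0.27. Thinned cells (22 antagonist, 79 control) gave 0.31, the opposite direction. The filter against Ptprc thus took out tuft-gated cells: 198 antagonist and 212 control cells fell to 148 and 131.

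Paneth-gated cells, which secrete defensins and lysozyme at the crypt base, had a higher sum in the antagonist library, yet less so than the gate's other genes. It was 264 CPM (248 to 282) in 494 antagonist and 163 CPM (148 to 178) in 228 control cells, 1.63 times as high (1.45 to 1.82), with 1 of 7 members 1.5-fold or more lower (1.74% of 8543 genes) and 3 of 7 as much higher. In the same gate 86.2% of genes were 1.5-fold or more higher and the median log2 ratio of all measured genes was 1.42, against 0.70 for the summed members, so relative to that median the members were lower by a log2 difference of -0.72. H2-Ab1 stood at 26.2 CPM in antagonist and 17.0 CPM in control cells of this gate, and Cd74 at 201 CPM in antagonist and 114 CPM in control cells, the members whose intervals lie above equality. The higher sum did not hold throughout: without the 5% of cells with the most UMIs the log2 ratio was -1.26, with equal weight for each cell -1.44, and in thinned cells -0.33. The gates also differed in make-up, with Lyz1, the lysozyme gene, at 4484 CPM in antagonist and 9922 CPM in control cells and Defa24 at 170513 CPM in antagonist and 335049 CPM in control cells. The CPM of every other gene in this gate is relative to a total that holds Defa24, and the part of either gene in the result was not tested.

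**Figure D3:**
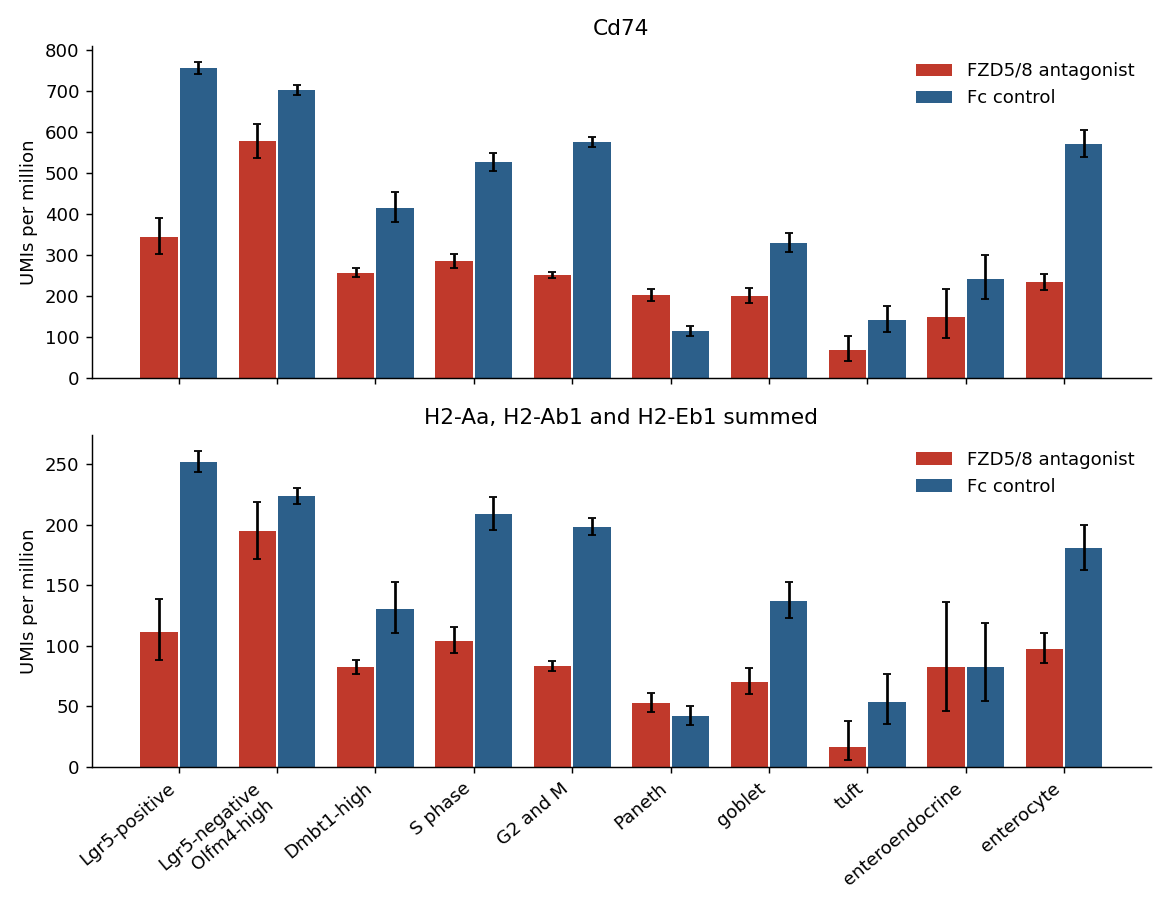
Level of Cd74 (upper panel) and of the 3 class II chains summed (lower panel) in CPM by marker gate, antagonist in red on the left and control in blue on the right, with 95% Poisson intervals. The antagonist bars are well below control in Lgr5-positive, S phase, G2 and M, goblet and enterocyte cells, close to control in Lgr5-negative Olfm4-high cells, and above control for Cd74 in Paneth-gated cells (201 CPM in antagonist, 114 CPM in control cells).

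The proportion of Cd74 to chains was much alike in the Lgr5-positive, Olfm4-high, Dmbt1-high and G2 and M gates, while their level was not. Cd74 UMIs per chain UMI were 3.09 in antagonist and 3.00 in control Lgr5-positive cells, 2.97 in antagonist and 3.14 in control Olfm4-high cells, 3.13 in antagonist and 3.18 in control Dmbt1-high cells, and 3.02 in antagonist and 2.90 in control cells of the G2 and M gate. The S phase gate had 2.73 (2.42 to 3.08) in antagonist and 2.51 (2.33 to 2.72) in control cells, and its control interval lies below those of the control Lgr5-positive, Olfm4-high and G2 and M gates. Enterocyte-gated cells differed between the libraries, with 2.38 (2.05 to 2.78) in antagonist and 3.16 (2.82 to 3.56) in control cells. The shift between H2-Ab1 and H2-Aa was seen in the G2 and M gate, with 1.72 (1.53 to 1.94) H2-Ab1 UMIs per H2-Aa UMI in antagonist and 1.10 (1.01 to 1.20) in control cells. Intervals also lay apart in S phase cells (1.89 in antagonist, 1.19 in control) and Lgr5-positive cells (2.41 in antagonist, 1.08 in control). In the Dmbt1-high, Paneth and goblet gates the antagonist ratio was higher with overlapping intervals. It was lower in the enterocyte and enteroendocrine gates, also with overlap. In Olfm4-high cells it was not seen, with 1.25 (0.906 to 1.72) in antagonist and 1.25 (1.15 to 1.35) in control cells.

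The libraries differed in make-up. Lgr5-positive cells gave 1.75% of member UMIs in the antagonist and 23.9% in the control library, and Olfm4-high cells 5.77% in the antagonist and 32.8% in the control library. In the Lgr5-positive, Olfm4-high, Dmbt1-high, S phase, G2 and M, goblet and enterocyte gates the median log2 ratio of all measured genes lay between -0.15 and 0.02, above the log2 ratio of the summed members in each of them. With each gate weighted alike in both libraries, the log2 ratio of the sum was -0.81, against -1.16 unweighted, and 6 of 7 members stayed past 1.5-fold lower.

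Across thinned cells the members followed Olfm4. In cells with 0, 1 to 2, 3 to 5, 6 to 10 and 11 or more Olfm4 UMIs the members summed to 309, 420, 659, 908 and 1083 CPM in the antagonist library. In the control library the sums were 507, 675, 862, 918 and 1005 CPM. The antagonist values were below control at 0, 1 to 2 and 3 to 5 UMIs with intervals apart. At 6 to 10 UMIs (806 to 1019 CPM in antagonist, 896 to 941 CPM in control cells) and above, the intervals overlapped. Few antagonist cells lay there, 105 (2.12%) with 6 to 10 and 24 (0.484%) with 11 or more Olfm4 UMIs. By contrast, 60.3% of thinned antagonist cells had no Olfm4 UMI, against 8.77% of control cells. Dmbt1 ran the other way, with sums of 532 CPM in antagonist cells with 0 to 2 Dmbt1 UMIs and 243 CPM in those with 21 or more, and of 945 CPM in control cells with 0 to 2 and 392.3 CPM in those with 21 or more.

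Reg3g and Reg3b, antimicrobial lectins secreted against luminal bacteria, were the genes most like the members from cell to cell. Over 7444 thinned control cells, among 8767 genes found in at least 2% of them, Pearson's r with the summed member UMIs (log scale) was 0.372 for Reg3g and 0.366 for Reg3b. Over 4956 antagonist cells r was 0.140 for Reg3g and 0.131 for Reg3b. Then followed Gpx2, a glutathione peroxidase (0.272 in control, rank 3), 2210407C18Rik (0.261), Prdx1, a peroxiredoxin (0.244), Dbi, which binds acyl-CoA (0.241), the ribosomal protein genes Rps3a1 (0.233) and Rps10 (0.212) and Ndufa4 of the respiratory chain (0.223). Their antagonist values were 0.0647 to 0.144. These cells share a library, and apart from those of the lectins in control cells the correlations are weak. Olfm4 ranked 37th in control cells (0.167), and in antagonist cells its r was 0.226, above those of both lectins.

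Sorted by Reg3g UMIs, in the same 5 classes as for Olfm4, thinned cells had member sums of 349, 372, 509, 511 and 865 CPM in the antagonist library. In the control library the sums were 623, 740, 1090, 1467 and 2261 CPM. The control values were higher in every class with intervals apart. In the highest class, 141 antagonist cells (2.85%) and 709 control cells (9.52%), a class II chain was found in 38.3% of antagonist and 65.7% of control cells. Reg3g itself stood at 410 CPM in antagonist and 1463 CPM in control cells, and Reg3b at 334 CPM in antagonist and 1340 CPM in control cells, while Reg3a was higher in the antagonist library at 28.8 CPM, against 18.2 CPM in control cells.

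**Figure D4:**
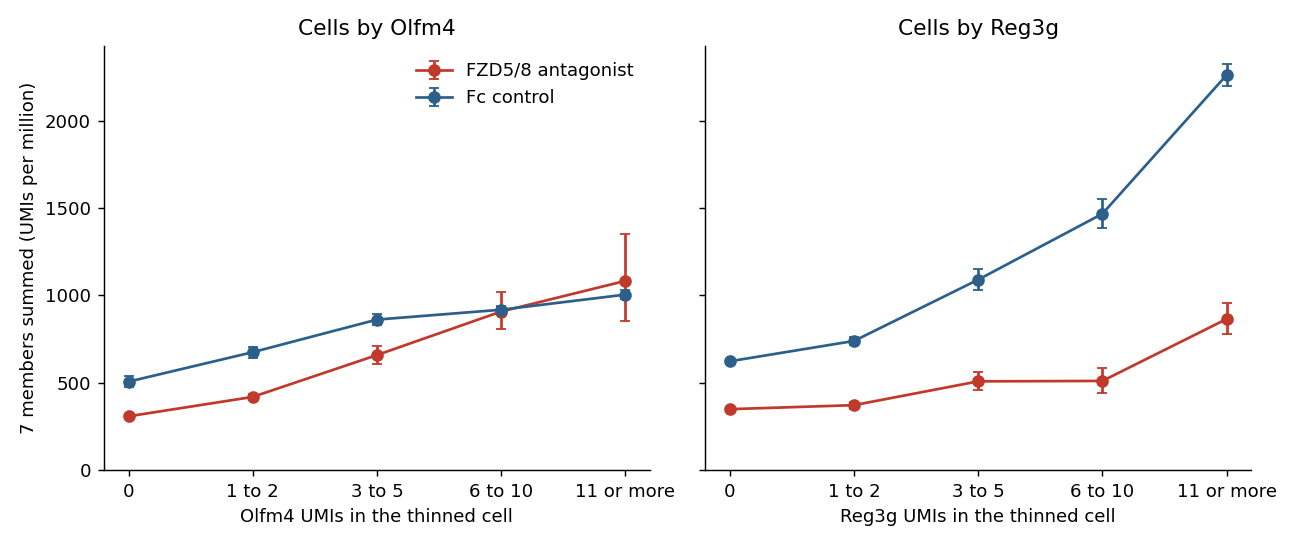
Summed level of the 7 members (CPM) in cells thinned to 3000 UMIs, by the number of Olfm4 UMIs (left) or Reg3g UMIs (right) in the cell, with 95% Poisson intervals, antagonist in red and control in blue. By Olfm4 the libraries meet at 6 or more UMIs, and by Reg3g they stay apart in every class.

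Except for the antimicrobial lectins, the other lists with measured genes had medians closer to that of all measured genes (-0.15) than the members had. The lectins had a median log2 ratio of -1.84, with 2 of 3 lower and 1 higher. Of 8 class II promoter factors, 4 were lower and 4 higher in the antagonist library, with a median log2 ratio of -0.05. Rfx5, a subunit of RFX, was the only one past 1.5-fold (18.9% of all measured genes were that much lower), at 3.04 CPM in antagonist and 4.64 CPM in control cells. Of 6 measured endosomal proteases, 6 were lower, with a median log2 ratio of -0.21, near that of all measured genes. Of these, 2 passed 1.5-fold (18.9% of all measured genes), Ctsl (cathepsin L), at 7.98 CPM in antagonist and 17.2 CPM in control cells, and Lgmn (legumain), at 5.23 CPM in antagonist and 11.4 CPM in control cells. Counts of lower genes in these lists have no share over all measured genes beside them, and the median of all measured genes was itself below equality. Ctss (cathepsin S), which trims the invariant chain in antigen-presenting cells, differed little, with 53.4 CPM in antagonist and 57.5 CPM in control cells.

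Of 9 measured interferon gamma pathway genes 8 were lower, none by more than 1.5-fold, with a median log2 ratio of -0.31, against -0.15 over all measured genes. Irf1, a transcription factor induced by interferon gamma, stood at 49.3 CPM in antagonist and 66.6 CPM in control cells. Ifng had 0 UMIs in both libraries, under a floor of 3 UMIs (0.0577 CPM in antagonist, 0.0460 CPM in control cells). Of 19 MHC class I and interferon response genes, 15 were lower, 5 of them 1.5-fold or more (18.9% of all genes), and 1 was as much higher (7.09% of all genes), and the median log2 ratio was -0.07. The class I genes H2-K1 (471 CPM in antagonist, 494 CPM in control cells) and B2m (876 CPM in antagonist, 908 CPM in control cells) were close, and so was the peptide transporter Tap1 (29.4 CPM in antagonist, 29.5 CPM in control cells). Those past 1.5-fold with 5 CPM or more in a library were Iigp1, an immunity-related GTPase, at 3.40 CPM in antagonist and 9.84 CPM in control cells, and Gbp7, a guanylate-binding protein, at 6.29 CPM in antagonist and 10.6 CPM in control cells.

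Genes that antigen-presenting cells use with class II were scarce. H2-Oa, H2-Ob and H2-Eb2 had 0 UMIs in both libraries. Of the costimulatory ligands, Cd86 had 0 UMIs in both, Cd80 0 UMIs in antagonist and 3 UMIs in control cells, and Cd40 1 UMI in antagonist and 7 UMIs in control cells. Icosl stood at 0.981 CPM in antagonist and 1.13 CPM in control cells. Cd274, which encodes PD-L1, had 12 UMIs in antagonist and 27 UMIs in control cells, and the interval of the ratio (0.257 to 1.14) includes equality. March8, a ubiquitin ligase that acts on surface proteins, stood at 22.5 CPM in antagonist and 22.6 CPM in control cells.

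**Figure D5:**
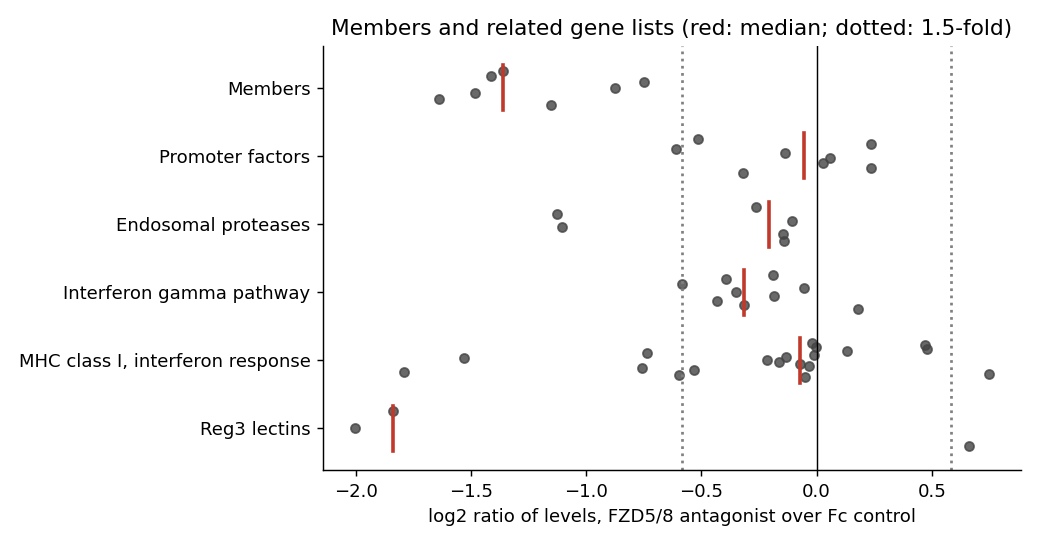
Log2 ratio of levels, antagonist over control, for the 7 members and for measured genes of related lists (points), with each list's median in red and 1.5-fold marked by dotted lines. The members lie between -1.64 and -0.75, while promoter factors (median -0.05) and MHC class I and interferon response genes (median -0.07) centre near 0. The median of the Reg3 lectins (-1.84) lies below that of the members.

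Markers of cells that carry class II professionally were few. Epcam was found in 97.7% of antagonist and 98.2% of control cells. Of 10 leukocyte markers 8 were under 1 CPM in each library, and the list summed to 13.6 CPM in antagonist and 26.1 CPM in control cells, carried by Lcp1 (5.27 CPM in antagonist, 20.8 CPM in control cells) and Rac2 (7.42 CPM in antagonist, 4.41 CPM in control cells). Ptprc is among these 8 only because the cell rule had removed every cell with a UMI of it. Of 10 B and plasma cell markers 9 were under 1 CPM (sum 3.71 CPM in antagonist and 3.11 CPM in control cells). Of 13 myeloid and dendritic markers 11 were under 1 CPM and the list's sum, 353 CPM in antagonist and 335 CPM in control cells, was nearly all Cst3 (349 CPM in antagonist, 330 CPM in control cells), while Itgax had 0 UMIs in antagonist and 1 UMI in control cells. Of 9 T cell markers the sum was 2.27 CPM in antagonist and 0.460 CPM in control cells, of which Gzma had 65 UMIs (1.25 CPM) in antagonist and 0 UMIs in control cells. For 6 stroma and endothelium markers it was 1.31 CPM in antagonist and 1.84 CPM in control cells. Removing every cell with a UMI of an immune marker under 1 CPM, an alternative chosen after seeing the data, left 10738 antagonist and 10957 control cells and a log2 ratio of the sum of -1.17. Gzma, Lcp1, Rac2, Cd79b, Itgam and Cst3 lay above 1 CPM in a library and were not part of that filter.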

How the data were processed

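The authors deposited 1 matrix of raw UMI counts per library. The submitters' processing notes name Cell Ranger and the build GRCm38 (mm10), and version 3.1.0 stands in the file headers. Sorting and library chemistry come from the labels' protocols. The sources used here give neither the rule for barcodes nor dose or time of treatment. No file holds per-sample columns beyond these matrices, and doublets were not called or removed.

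The members, gene lists and markers were chosen with earlier results of these data known. UMIs of kept cells were summed per library or gate and divided by that total. Intervals are exact and of 95%: Poisson for levels, conditional binomial for ratios and Clopper-Pearson for shares of cells. UMIs within a cell or a mouse are not independent, so the intervals cover counting error only. Log2 ratios of lists had 0.5 added to each sum. A gene counted as changed past 1.5-fold, and as measured with 20 UMIs over both libraries. A limit for 0 found is 3 counts. Levels of different genes were set side by side per UMI, which counts captured 3′ ends and does not grow with transcript length.

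Gates took cells in this order, by summed markers per 10000 UMIs and by the number of markers found: tuft (50, 3), enteroendocrine (20, 3), Paneth (500, 6), goblet (150, 4) and enterocyte (150, 6), with cells meeting more than 1 of these set apart as mixed, then G2 and M (20), S phase (15), 1 UMI of Lgr5, Olfm4 (10) and Dmbt1 (30). Besides the members, genes named from a list have at least 5 CPM in a library and a ratio past 1.5-fold (at most 4 a list), the genes most like the members are the 10 with the highest r (1 of them is not reported here), and other genes were named after their values were seen. Cells were thinned to 3000 UMIs with a fixed seed. Counts, ratios and thinning were checked on simulated data. Python 3.11.15, numpy 2.4.6, scipy 1.17.1, pandas 2.3.3 and matplotlib 3.10.9 were used. Alternatives were other cell filters, scalings, weights, depths and gate thresholds. Some listed genes, Ifi30, H2-Ea-ps and the newer names of 2 ubiquitin ligases among them, had no matching symbol and were not analysed here.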

Additional observations from a re-analysis of the deposited data

Results flagged for a closer look

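The summed member level was 1.63 times as high in Paneth-gated antagonist cells as in Paneth-gated control cells, while over all kept cells it was 2.23-fold lower in the antagonist library. In this gate 86.2% of 8543 genes were 1.5-fold or more higher in the antagonist library, with a median log2 ratio of 1.42 over all measured genes, and the members' sum differed from that median by a log2 value of -0.72. The difference between this gate and the rest was not tested, since each condition has 1 library. The gate held 494 antagonist cells with a median of 3214.5 UMIs and 228 control cells with a median of 1262.5 UMIs.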

How the results depend on the processing

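No paired analysis was possible because each condition has 1 library, and for the same reason no replicate could be left out. All 13 alternatives kept 6 or 7 of 7 members past 1.5-fold lower, and 91 of 91 member ratios stayed below equality. The log2 ratio of the summed level, -1.16, was -1.11 without cells with any leukocyte, B cell or myeloid list UMI (4107 antagonist and 3211 control cells left), -1.22 without the 5% of cells with most UMIs, -1.19 with equal weight per cell, -1.20 scaled without mitochondrial and ribosomal protein genes, -1.18 in thinned cells, -0.81 with gates weighted alike and, chosen after seeing the data, -1.21 without differentiated and mixed cells. It was -1.17 without barcodes that both libraries hold, also chosen after seeing the data. The cells removed by the leukocyte, B cell and myeloid list filter are called immune list cells below. The myeloid list holds Cst3 (349 CPM in antagonist, 330 CPM in control cells), so the name does not mark immune cells alone. The difference in cells with 2 or more members, -20.4 percentage points, was -18.8 without the immune list cells, -11.6 at 1500 UMIs and -27.0 without thinning. It kept its direction under 11 of 11 alternatives. Within gates, the log2 ratio of Paneth-gated cells (0.70) turned to -1.69 without the immune list cells, -1.26 without the 5% of cells with most UMIs, -1.44 with equal weight and -0.33 when thinned. Thinning also turned Olfm4-high cells (-0.25) to 0.0035 and tuft-gated cells (-1.10) to 0.31, and gate thresholds lowered 1.5-fold, added after seeing the data, turned mixed cells (-0.63) to 0.19. Enteroendocrine-gated cells, with -0.50, gave 0.32 without the immune list cells, on 15 antagonist cells, and Lgr5-positive cells, with -1.15, gave -0.02 on 11 antagonist cells there. The cause of these shifts was not tested. The share of all genes 1.5-fold or more lower was 15% with 100 or more UMIs and 25.9% with 1 or more. Depth limits Ciita, H2-DMb1 and the small gates most.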

Other observations

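The summed level varied little with depth. With each library's cells split into 4 classes of equal size by UMI count, it was 357 to 391 CPM in antagonist and 749 to 918 CPM in control classes, which do not overlap. Barcodes with fewer than 500 genes, left out above, stood at 341 CPM (310 to 374) in the antagonist and 837 CPM (776 to 901) in the control library, close to the kept cells of the same library. The cells with a Ptprc UMI, 127 antagonist and 106 control cells, stood at 362 CPM in antagonist and 822 CPM in control cells, and 99.2% of the antagonist and 100% of the control ones had an Epcam UMI.

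At the other end of the cell-to-cell likeness, among the 8767 genes ranked, Krt8, a keratin of simple epithelia (r = -0.11 in antagonist, -0.18 in control cells), and Tff3, a goblet cell trefoil factor (-0.06 in antagonist, -0.13 in control cells), were among the 5 with the lowest r in control cells. Krt8 stood at 964 CPM in antagonist and 521 CPM in control cells. For Irf1 r was 0.0019 in antagonist and 0.0096 in control cells.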
